A study of Mus musculus with 14 samples.

Results

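The genes described here serve protein folding in the endoplasmic reticulum (ER) and the unfolded protein response. A list of 38 genes was searched among the 19938 genes that the array measured with a probe set paired to exactly 1 symbol, and each gene was represented by its probe set with the highest mean. Values were found for 37 of the 38. The 4 probe sets of Sec61g, a small subunit of the translocon, were each shared with other symbols, so Sec61g was left without a value. By role, the 37 were 10 ER chaperones and co-chaperones, 6 lectin chaperones and disulfide isomerases, 9 genes of ER-associated degradation, 3 stress sensors and transcription factors, 5 genes of the translocon and its associated complex, and 4 genes of vesicle coats and cargo receptors.

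Proteins destined for secretion or for membranes are threaded through the translocon into the ER, where chaperones and oxidoreductases fold them, and folded cargo leaves in coated vesicles. Chains that fail to fold are passed back to the cytosol and degraded. When unfolded chains build up, the membrane sensors IRE1 (encoded by Ern1), ATF6 and PERK start a transcriptional program that raises chaperones and degradation factors, and part of it works through the spliced form of Xbp1. Secretory epithelia such as the mammary gland depend on this machinery.

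Total RNA was profiled from 4T1 cells, which derive from a mammary tumor of a BALB/c mouse, to see how the level of the RNA deadenylase Cnot7 affects the transcriptome (14 samples). Lentivirus carried human FLAG-tagged CNOT7 cDNA under the murine Pol2 promoter into the over-expression cells (3 samples), which were selected with blasticidin and set against vector control cells (3 samples). The other cells, selected with puromycin, carried 1 of 2 short hairpin RNAs against Cnot7, sh74 (2 samples) or sh75 (3 samples), or a scrambled hairpin, shScramble (3 samples). Replicates are called biological in the deposited design, but their origin from separate cultures is not stated, and p-values therefore measure only the spread between these samples. Numbers in the sample titles recur, and both the sh75 and the over-expression groups hold 2 samples with the same first number. Of the groups compared below, only sh75 and shScramble share a first number. In every other comparison, group and first number cannot be told apart. What that number stands for is not stated. All values are RMA log2 values, in which 1 unit is a doubling.

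Cnot7, the targeted gene, was lower in every hairpin sample than in shScramble. It stood at 8.71 and 9.33 in sh74, at 7.52, 8.51 and 8.07 in sh75, and between 10.20 and 10.44 in shScramble. The difference from shScramble was -1.31 (SE 0.29) for sh74, with an adjusted p of 0.279 by limma, and -2.29 (SE 0.26) for sh75, with an adjusted p of 0.00911. The mouse probe set gave a difference of 0.00 (SE 0.26) between over-expression and vector control, so the array does not check the over-expression label, and whether this probe set can read the human cDNA is not stated. Array medians lay between 6.31 and 6.38. Of 8 epithelial markers, the keratins Krt8, Krt18 and Krt7 were at 11.13 to 12.30 in all 14 samples, Cdh1 was at 10.28 to 11.43 and Krt19 at 8.87 to 11.07. The mesenchymal markers Vim (10.08 to 13.06) and Fn1 (11.72 to 12.75) were high as well, while Cdh2 stayed at 4.02 to 4.22. The 12 measured immune, endothelial and adipocyte markers were at 4.19 to 6.04, and the dim limit was 4.89. The samples were not alike in some markers of both kinds: Esrp1, an epithelial splicing regulator, was at 5.21 to 6.50 in 5 samples and at 9.73 to 11.01 in the other 9, and the epithelial genes Epcam (5.98 to 10.01) and Cldn7 (5.78 to 10.92) varied widely too. So did the mesenchymal markers Sparc (5.81 to 11.67), Pdgfra (6.83 to 9.25) and Twist1 (7.07 to 8.69). Zeb1 (5.24 to 5.57) and Pdgfrb (4.86 to 5.13) varied little.

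Several members carry a known binding site of this stress program in their promoters, and those sites are shown because ATF6 and XBP1, the factors of the response, are known to act through them. The ER stress element (ERSE) was searched as CCAAT and CCACG with 9 bases between them, the second form (ERSE-II) as ATTGG and CCACG with 1 base between them, and the unfolded protein response element as TGACGTGG, on both strands of RefSeq promoters from 250 bases before to 50 bases after the start (GRCm38.p6). The reverse of the last one begins with CCACG and can therefore overlap the ERSE forms. Of 31 members in the promoter table, 9 held an ERSE (29%), against 37 of 27025 genes (0.137%). The second form was in 2 of 31 members (6.45%) and in 12 of all genes (0.0444%), and the third in 0 members and 193 of all genes (0.714%). The windows below are 29 bases long, 5′ to 3′, with the elements in capitals. Hspa5 has 1 ERSE at chr2:34772020-34772048 on the plus strand, and Hsp90b1 has a pair, at chr10:86705528-86705556 (plus) and chr10:86705633-86705661 (minus). The others are Pdia6 at chr12:17266486-17266514 (plus), Dnajc3 at chr14:118937822-118937850 (plus), Creld2 at chr15:88819515-88819543 (minus), Dnajb11 at chr16:22857843-22857871 (plus) and Herpud1 at chr8:94386368-94386396 (plus), the last pair with ERSE-II.
Hspa5: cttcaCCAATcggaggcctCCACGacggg
Hsp90b1, first: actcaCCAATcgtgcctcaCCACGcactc
Hsp90b1, second: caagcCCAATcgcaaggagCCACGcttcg
Pdia6: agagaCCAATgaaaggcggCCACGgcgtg
Dnajc3: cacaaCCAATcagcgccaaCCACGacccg
Creld2: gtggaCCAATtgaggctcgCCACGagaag
Dnajb11: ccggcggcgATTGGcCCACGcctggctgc
Herpud1: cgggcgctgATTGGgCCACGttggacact
The search required CCAAT (or ATTGG) and CCACG at a fixed distance, so these letters are shared by construction and only the other bases can differ. Calr, Canx, Derl3 and Syvn1 also held an ERSE. The windows of Dnajb12 and Tmed9, the members that passed a test below, held none of the 3 elements, and 7 members were not in the promoter table: Hyou1, Manf, Derl1, Atf6, Sec61a1, Ssr2 and Tmed2.

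All 37 members had a mean above the dim limit. For Derl3, a degradation factor, the mean of 5.36 lay within the range of the immune, endothelial and adipocyte markers, so its expression is not shown. Hspa5, which encodes BiP, the main Hsp70 of the ER, ranged from 12.21 to 12.73 over the 14 samples, with a mean of 12.54. Hsp90b1, the Hsp90 of the ER, ranged from 11.98 to 12.44. The spread within groups, pooled over the 5 groups, ran from an SD of 0.07 for Derl3 to 0.51 for Herpud1, with a median of 0.17. For a typical member, a difference below 0.2 is thus about the size of the scatter between single samples. That does not hold for members with a small SD, such as Dnajb12 (0.08), and a difference of group means is best read beside its own SE. Single samples set many of the extremes: over-expression replicate 3 held the highest value of 8 members, sh75 replicate 3 of 7, and sh75 replicate 1 of 6. The lowest value was in sh74 replicate 2 for 8 members and in vector control replicate 2 for 7.

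**Figure D1:**
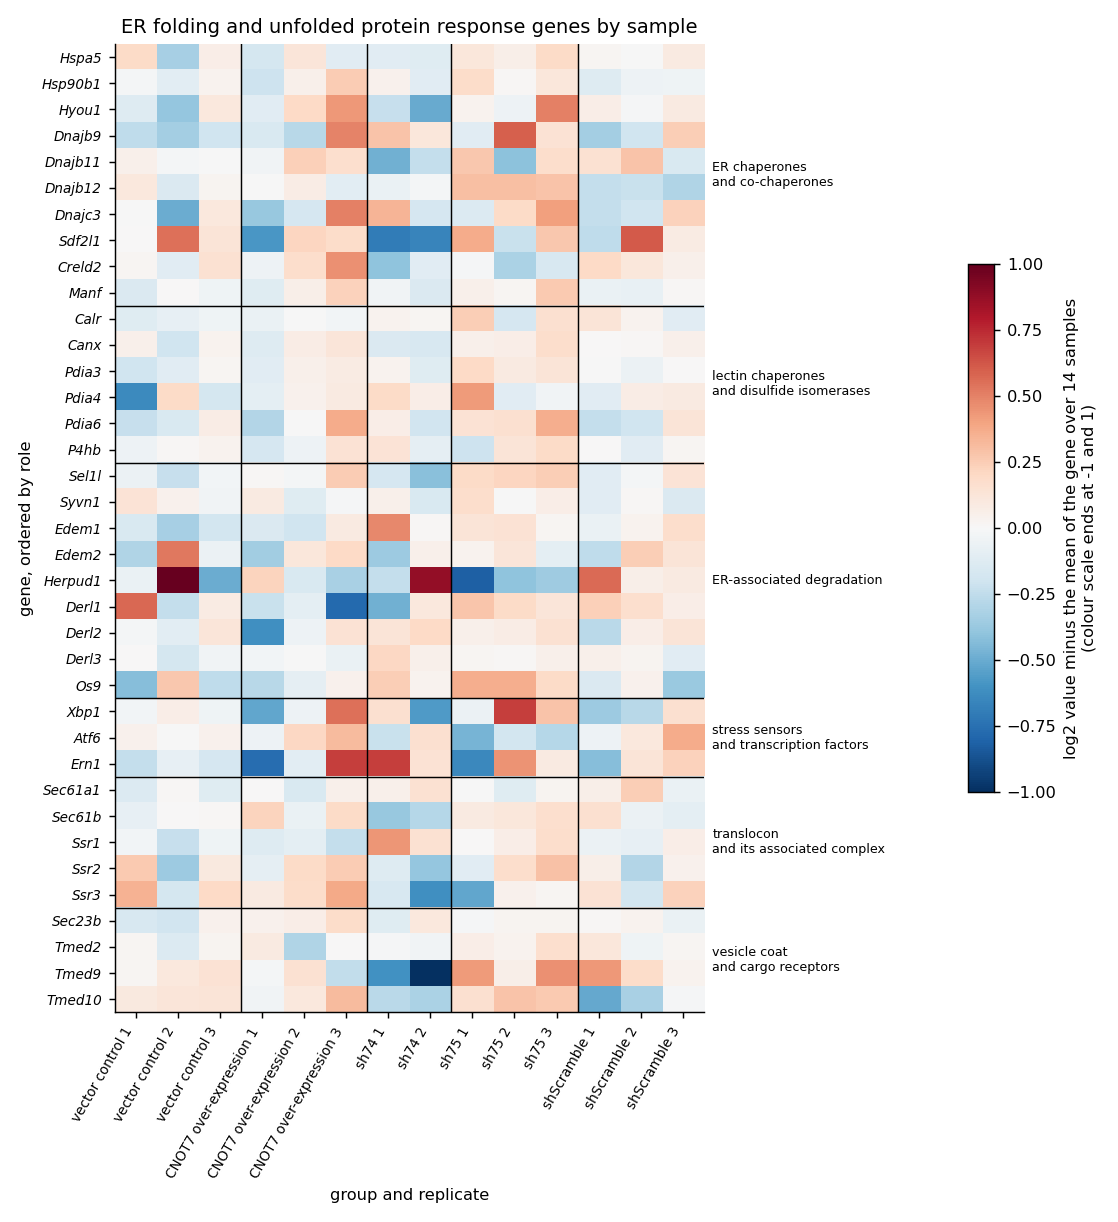
Heat map of the 37 genes (rows, ordered by role) in the 14 samples (columns, by group and replicate). Color gives the log2 value minus the mean of that gene over all samples, from blue (lower) to red (higher). Dnajb12 is red in all 3 sh75 samples and blue in all 3 shScramble samples, Tmed9 is blue in both sh74 samples, and Herpud1 varies most, over a range of 1.86.

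Cells expressing CNOT7 differed little from vector control cells in this gene group. Of the 37 members, 24 were higher and 13 lower, with a median difference of 0.06, while over all 21789 probe sets tested 53.9% were higher and the median was 0.01. No member passed the test (0 of 37, limma, adjusted p under 0.05), and of all probe sets 0% did. At an unadjusted p under 0.05 there were 2 members (5.41%), against 2.58% of all probe sets, and the methods' t-test at its own threshold found 0 (all probe sets 0.629%). The median was 0.01 without over-expression replicate 3 and 0.13 without over-expression replicate 1. The samples of the groups did not overlap for 1 member that was higher (2.7%, all probe sets 4.30%) and for 0 that were lower (all probe sets 3.42%).

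The 2 members with an unadjusted p under 0.05 were Derl1 and Sec23b. Derl1, which encodes a channel protein of ER-associated degradation, was at 9.29, 9.41 and 8.73 in over-expressing cells and at 10.09, 9.28 and 9.59 in vector controls. The groups overlapped, since vector control replicate 2 lay below both of the higher over-expression samples, and the difference was -0.51 (SE 0.22) with an adjusted p of 0.9999 (limma). Sec23b, a subunit of the COPII coat that forms vesicles at the ER, was at 10.14, 10.16 and 10.27 against 9.93, 9.90 and 10.14, a difference of 0.20 (SE 0.08) with an adjusted p of 0.9999 by limma. Its groups met at 10.14. Sel1l, the adaptor of the degradation ligase Hrd1, was at 9.45, 9.42 and 9.69 against 9.38, 9.21 and 9.41, and was the member whose groups did not overlap (difference 0.19, SE 0.10). Sdf2l1, a stress-inducible partner of the co-chaperone Dnajb11, was at 7.51, 8.32 and 8.28 against 8.10, 8.65 and 8.22 (difference -0.29, SE 0.27).

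The stress sensors gave differences well within their scatter. Xbp1, the transcription factor activated by IRE1, was at 8.79, 9.27 and 9.87 in over-expressing cells and at 9.29, 9.39 and 9.28 in vector controls, so the over-expression samples lay on both sides of all 3 controls. The array does not separate its spliced from its unspliced form. Ern1 showed the same layout, with 7.995, 8.65 and 9.44 against 8.52, 8.67 and 8.59. Atf6 was at 9.48, 9.74 and 9.84 against 9.57, 9.52 and 9.57, a difference of 0.13 (95% interval -0.16 to 0.43). For Hspa5 the difference was -0.03 (interval -0.29 to 0.23) and for Hsp90b1 0.06 (-0.16 to 0.29).

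With the hairpin sh74, no member passed the test either (0 of 37, limma; 0.00918% of all probe sets did, 2 in number) in this comparison. Against shScramble, 17 members were higher and 20 lower, with a median of -0.01 (all probe sets 0.00), which was 0.00 without sh74 replicate 2 and -0.06 without sh74 replicate 1. Below an unadjusted p of 0.05 there were 8 members (21.6%; all probe sets 7.33%), 2 higher and 6 lower, and the methods' t-test found 2 members, Dnajb12 and Canx, at its own threshold (5.41%, all probe sets 1.34%) and 0 after adjustment. The samples did not overlap for 3 members that were higher (8.11%, all probe sets 11.4%) and for 9 that were lower (24.3%, all probe sets 10.6%). The 9 were the chaperones and co-chaperones Hspa5, Hyou1, Dnajb11, Sdf2l1 and Creld2, together with Canx, Sel1l, Sec61b and Tmed9.

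Tmed9, a p24 family receptor that packs cargo into vesicles between the ER and the Golgi, had the largest difference of the list. It was at 7.89 and 7.35 in sh74 and at 8.93, 8.68 and 8.53 in shScramble. Both sh74 samples lay below every other sample of the series, the next lowest being 8.25, and the difference was -1.09 (SE 0.18), with an adjusted p of 0.125 by limma. Sec61b, the beta subunit of the translocon, was at 8.76 and 8.85 against 9.30, 9.08 and 9.04, again with both sh74 samples the lowest of all 14 (difference -0.33, SE 0.10, adjusted p = 0.477, limma). Its other probe sets gave -0.32 and -0.38. Sdf2l1 was at 7.39 and 7.43 in sh74 against 7.84, 8.71 and 8.18 (difference -0.83, SE 0.30), and the shScramble samples themselves spread over almost 1 unit.

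In the other direction, Ssr1, a subunit of the translocon-associated complex, was at 11.12 and 10.84 in sh74 and at 10.63, 10.61 and 10.75 in shScramble. The groups did not overlap, and the difference was 0.32 (SE 0.10) with an adjusted p of 0.488 by limma. Dnajb12, a J-domain co-chaperone anchored in the ER membrane, was at 9.15 and 9.19 against 8.97, 8.99 and 8.91 (difference 0.21, SE 0.08, adjusted p = 0.572, limma). Hspa5 was at 12.43 and 12.42 against 12.56, 12.54 and 12.62, lower in both samples, with a difference of -0.15 and an interval of -0.44 to 0.14. Hsp90b1 ranged from 12.08 to 12.23 in sh74 and from 12.05 to 12.14 in shScramble, with overlap and a higher mean in sh74. Ern1 was at 9.44 and 8.90 against 8.33, 8.88 and 8.98, Xbp1 at 9.47 and 8.75 against 8.95, 9.04 and 9.47, and Atf6 at 9.31 and 9.68 against 9.48, 9.63 and 9.90. For these 3 the sh74 pair overlapped the shScramble samples.

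With sh75, the stronger of the hairpins by mean Cnot7 value, 1 member rose. Against shScramble, 28 members were higher and 9 lower, with a median of 0.09 (all probe sets 0.00, 49.8% of them higher). All 6 lectin chaperones and disulfide isomerases and all 4 vesicle coat and cargo receptor genes were on the higher side, by 0.02 to 0.52. By limma 1 of 37 members passed (2.7%, all probe sets 0.0918%), and 4 had an unadjusted p under 0.05 (10.8%, all probe sets 8.26%). The methods' t-test found 1, Dnajb12, at its own threshold (2.7%, all probe sets 1.63%) and 0 after adjustment. The samples did not overlap for 8 members that were higher (21.6%, all probe sets 6.71%) and for 3 that were lower (8.11%, all probe sets 6.76%). The 8 were Hsp90b1, Dnajb12, Manf, Pdia3, Pdia6, Sel1l, Os9 and Tmed10, and the 3 were Creld2, Herpud1 and Atf6. Cell state markers differed in the same comparison, though 0 of them passed by limma. Of 8 mesenchymal markers 5 were higher, 2 of them without overlap (Twist1 by 0.84, SE 0.39, and Sparc by 2.43, SE 1.13), and Vim was higher by 0.96 (SE 0.84). The nearest sh75 and shScramble samples were at 8.43 and 8.37 for Twist1 and at 11.123 and 11.119 for Sparc. In shScramble replicates 1 and 2 Sparc was at 9.82 and 5.81. All 8 epithelial markers were on the lower side, 1 of them without overlap (Krt7, -0.41, SE 0.11). The mean level of the mesenchymal list was 8.30 to 8.67 in sh75 samples and 7.17 to 8.43 in shScramble, and that of the epithelial list 9.48 to 11.03 and 9.48 to 11.06. Their part in the members' differences was not tested.

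The member that rose was Dnajb12. It was at 9.51, 9.51 and 9.49 in sh75 and at 8.97, 8.99 and 8.91 in shScramble, and lay between 9.06 and 9.32 in the other 8 samples. The sh75 samples were thus the 3 highest and the shScramble samples the 3 lowest of all 14, and group means were 9.50 ± 0.01 (SD, n = 3) and 8.96 ± 0.04 (SD, n = 3). The increase was 0.55 (SE 0.07), 1.46-fold, with an adjusted p of 0.0163 by limma. An exact permutation test on these 6 values alone gave a two-sided p of 0.1, the smallest that 3 against 3 samples allow. Within the title numbers that the 2 groups share, the difference was 0.52 for number 4 (1 sample each) and 0.59 for number 5 (2 sh75 samples against 1). The call was lost when the title number was a block (adjusted p = 0.262, limma) and when any sample but sh75 replicate 3 was left out, with adjusted p-values of 0.0739 to 0.0947 and differences of 0.52 to 0.56. Over the 15 alternatives the adjusted p ran from 0.01001 to 0.444 and passed in 6. Vector controls were also above shScramble for this gene, by 0.25 (SE 0.07, adjusted p = 0.99999, limma), with no overlap.

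Tmed10, another p24 family cargo receptor, came next. It was at 10.94, 11.06 and 11.04 in sh75 and at 10.27, 10.46 and 10.77 in shScramble, without overlap, and the difference was 0.52 (SE 0.12) with an adjusted p of 0.204 by limma. Its dimmer probe set gave 0.38 (SE 0.14). As with Dnajb12, the vector controls (10.87 to 10.91) were above shScramble too, by 0.40. Os9, a lectin that hands misfolded glycoproteins to degradation, was 0.46 higher (SE 0.17), at 9.54, 9.54 and 9.37 against 9.03, 9.22 and 8.81.

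Members with lower values in sh75 included a sensor. Atf6 was at 9.06, 9.35 and 9.24 in sh75 and at 9.48, 9.63 and 9.90 in shScramble, without overlap, a difference of -0.45 (SE 0.13) with an adjusted p of 0.374 by limma. Creld2, an ER stress-inducible protein with an ERSE, was at 9.51, 9.21 and 9.36 against 9.72, 9.63 and 9.57 (difference -0.28, SE 0.13). Herpud1, a scaffold of the degradation complex with an ERSE-II, was at 8.33, 8.74 and 8.79 against 9.72, 9.20 and 9.23, a difference of -0.76 (SE 0.38). Its vector control samples ran from 8.65 to 10.19, so this gene varied within a group by more than that difference. Xbp1 was at 9.26, 10.00 and 9.60 against 8.95, 9.04 and 9.47 (difference 0.47, SE 0.28), and Ern1 at 8.11, 9.20 and 8.85 against 8.33, 8.88 and 8.98 (difference -0.01, SE 0.36). Hspa5 was at 12.65, 12.60 and 12.72 against 12.56, 12.54 and 12.62, and Hsp90b1 at 12.37, 12.19 and 12.30 against 12.05, 12.13 and 12.14. The sh75 values of Hsp90b1 were all above those of shScramble, by 0.18 on average (interval -0.05 to 0.40).

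**Figure D2:**
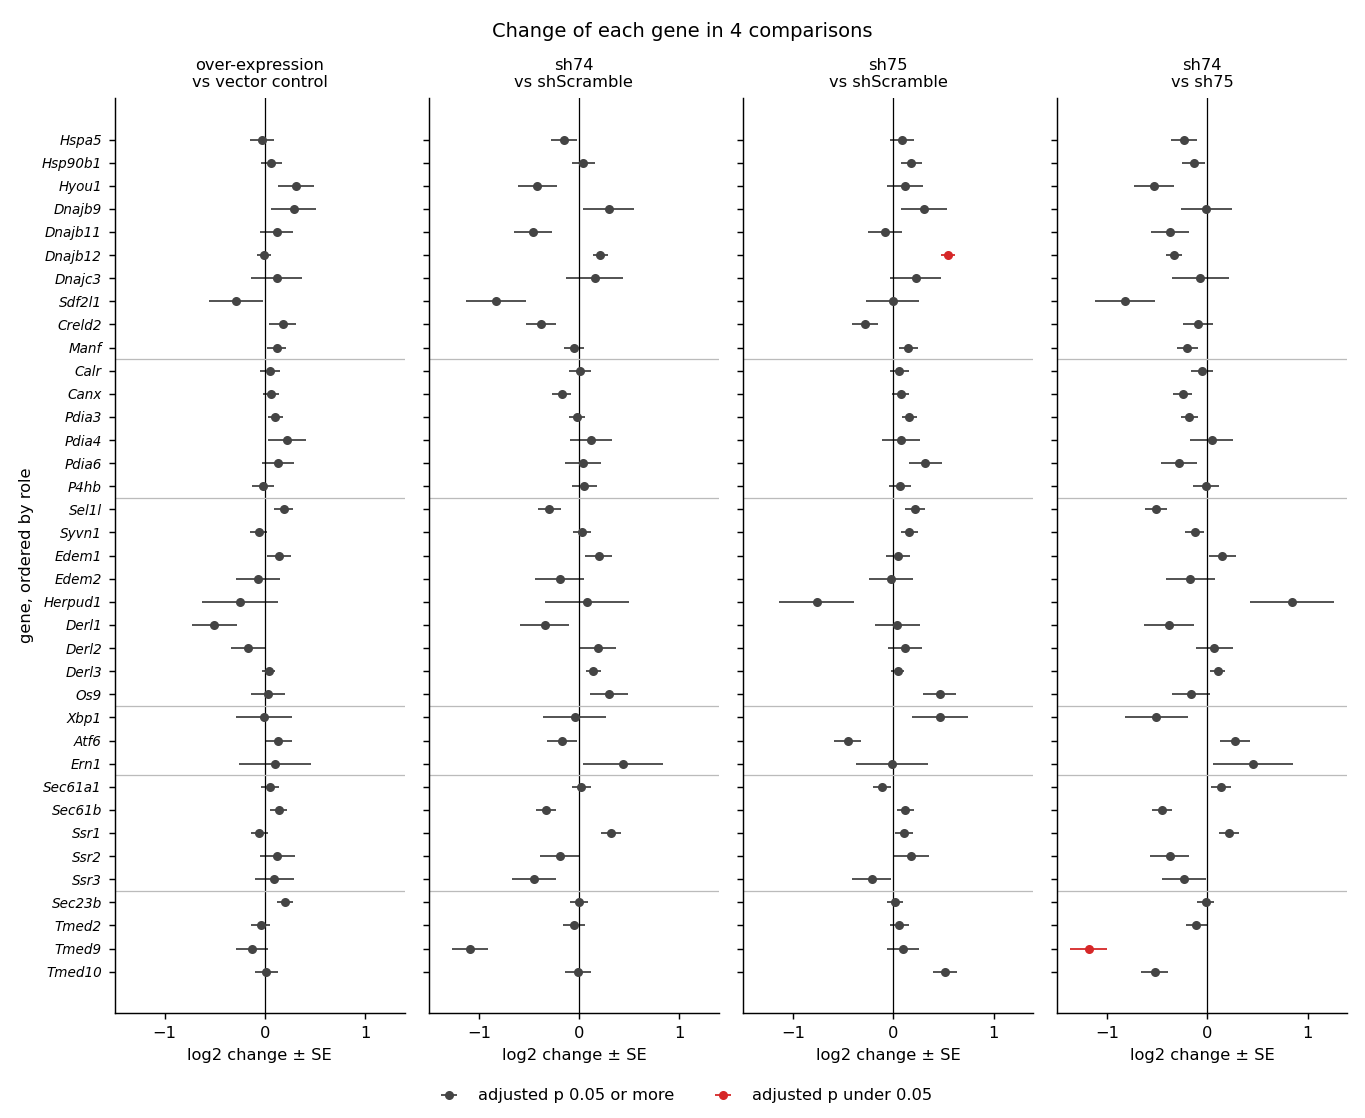
Log2 difference of each of the 37 genes (points, with the standard error from limma as bars) in 4 comparisons, ordered by role. Red marks an adjusted p under 0.05, which Dnajb12 reached in sh75 against shScramble (0.55) and Tmed9 in sh74 against sh75 (-1.19). All 10 chaperones and co-chaperones lie left of 0 in the last panel.

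Set directly against each other, the hairpins differed in 1 member that passed the test, in groups that share no title number. In sh74 cells 28 members were lower and 9 higher than in sh75 cells, with a median of -0.16 (all probe sets 0.00, 50.8% of them higher). All 10 chaperones and co-chaperones were lower, with differences of -0.01 to -0.82, as were 5 of 6 lectin chaperones and disulfide isomerases and all 4 vesicle genes. Among the sensors and factors, Atf6 and Ern1 were higher by 0.28 and 0.45, and Xbp1 gave -0.51. By limma 1 member passed (2.7%, all probe sets 0.174%), 8 had an unadjusted p under 0.05 (21.6%, all probe sets 8.93%), all of them lower, and the methods' t-test gave 3 at its own threshold (8.11%, all probe sets 1.45%) and 0 after adjustment. The samples did not overlap for 15 members that were lower (40.5%, all probe sets 11.0%) and for 2 that were higher (5.41%, all probe sets 11.6%). Cell state markers differed here as well, with 0 called by limma. Of 8 epithelial markers 6 were higher in sh74, Krt7 without overlap (0.29, SE 0.12), and of 8 mesenchymal markers 3 were higher. Vim gave -0.97 (SE 0.94), Sparc -1.31 (SE 1.26) and Twist1 -0.49 (SE 0.43). The part of these markers in the members' differences was not tested.

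The member that passed was Tmed9, lower in sh74 with a difference of -1.19 (SE 0.18) and an adjusted p of 0.0383 by limma. Its sh74 samples, at 7.89 and 7.35, lay below all sh75 samples at 8.92, 8.55 and 8.95. The exact two-sided permutation p was 0.2, the smallest for 2 against 3 samples. The call was lost without sh74 replicate 2 (-0.92, adjusted p = 0.107), without sh75 replicate 1 (adjusted p = 0.0955) and without sh75 replicate 3 (adjusted p = 0.0972), all by limma. Over the 13 alternatives the adjusted p ran from 0.0318 to 0.748 and passed in 6. Sel1l was at 9.27 and 9.02 in sh74, at 9.32, 9.42 and 9.58 in shScramble and at 9.63, 9.65 and 9.68 in sh75. The hairpin groups thus lay on opposite sides of shScramble without overlap, and the difference between them was -0.51 (SE 0.11, adjusted p = 0.128, limma). Tmed10 was at 10.51 and 10.46 in sh74, a difference of -0.53 from sh75 (SE 0.13, adjusted p = 0.197, limma), and for Sec61b it was -0.45 (SE 0.10, adjusted p = 0.128, limma). Ssr1 and Herpud1 had the smallest p among members that were higher in sh74. Ssr1 was higher by 0.21 (SE 0.10), and Herpud1, at 8.90 and 10.02, by 0.84 (SE 0.42).

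**Figure D3:**
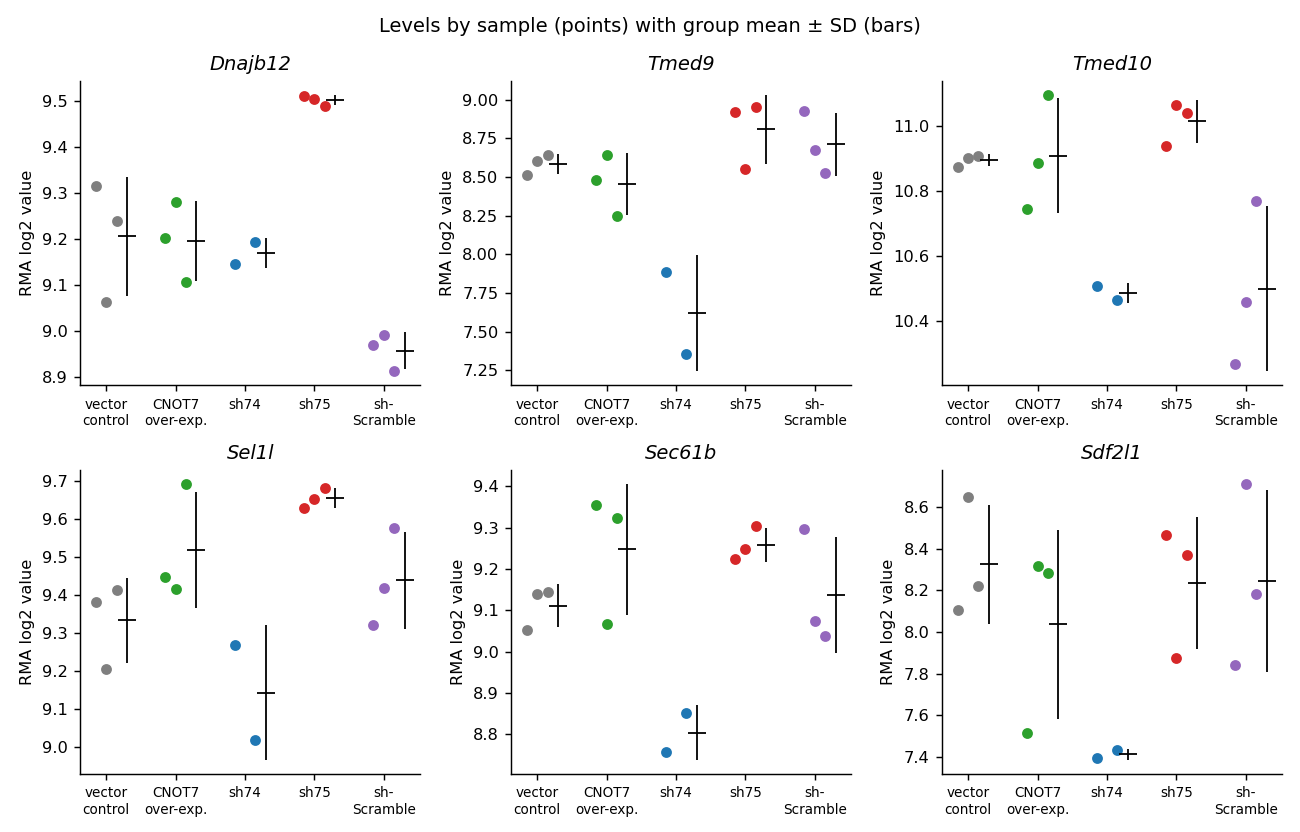
RMA log2 values of 6 genes in every sample (points) by group, with the group mean ± SD beside them (n = 3, and 2 for sh74). For Dnajb12 the sh75 samples (9.49 to 9.51) sit above all others. For Tmed9 and Sec61b both sh74 samples sit below all others, while Tmed10 in sh74 lies within the shScramble range.

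The control groups, which carry different vectors and selections, were also compared. In vector control, 12 members were higher and 25 lower than in shScramble, with a median of -0.06 (all probe sets 0.00). By limma 0 of 37 members and 0% of all probe sets passed, and 3 members had an unadjusted p under 0.05 (8.11%, all probe sets 3.70%), with 0 by the methods' t-test at its own threshold (all probe sets 0.877%). Dnajb12 and Tmed10 were the 2 without overlap on the higher side (5.41%, all probe sets 4.67%). Edem1, which marks misfolded glycoproteins for degradation by trimming their mannose, was the 1 on the lower side (2.7%, all probe sets 5.07%), at -0.27 (SE 0.12). The shScramble samples enter both hairpin comparisons, and their values for Dnajb12 were the lowest in the series.

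Members with and without a promoter element gave medians close to each other. In sh75 against shScramble, the median difference was 0.07 over 11 measured members with an element and 0.11 over 19 with none in the window. In sh74 against sh75, the medians were -0.13 and -0.17. In sh74 against shScramble they were 0.03 and 0.00, and in over-expressing cells 0.06 and 0.03. Among the 11, differences from shScramble with sh75 ran from -0.76 (Herpud1) to 0.32 (Pdia6).

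Around these genes, 108 of 114 other genes of the pathway had values, and none passed the test in any of the 5 comparisons (limma, adjusted p under 0.05). With over-expression 74 were higher and 34 lower, with 1 in each direction at an unadjusted p under 0.05 (1.85%, below the share of all probe sets, 2.58%): Sumf1, which activates sulfatases in the ER, at 0.33 (SE 0.12), and Ssr4, a translocon-associated subunit, at -0.15 (SE 0.07). With sh74 49 were higher and 59 lower, with 1 and 6 at that level (6.48%, again below that of all probe sets, 7.33%). The smallest p belonged to Sec24a, the cargo-binding COPII subunit (-0.54, SE 0.15, adjusted p = 0.435, limma), and Ero1a, the oxidase that recharges disulfide isomerases (-0.87, SE 0.27, adjusted p = 0.484, limma). With sh75 72 were higher and 36 lower, with 9 and 8 at that level (15.7%, all probe sets 8.26%), the smallest p belonging to Ppp1r15b, which directs the phosphatase that reverses the PERK signal (-0.87, SE 0.16, adjusted p = 0.119, limma), and Sar1b, the GTPase that starts COPII coats (-0.32, SE 0.09, adjusted p = 0.322, limma). Ppp1r15b was at 7.95, 7.90 and 8.03 in sh75 and at 8.88, 8.75 and 8.87 in shScramble, and its sh75 values were the 3 lowest of all 14. In sh74 against sh75, 40 of the other genes were higher and 68 lower, with a median of -0.05 (members -0.16). At an unadjusted p under 0.05 there were 8 higher and 7 lower (13.9%, all probe sets 8.93%). The lean to lower values in sh74 was thus not confined to the members.

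The epithelial marker Esrp1 differed between samples of a group, and several members differed with it. Low Esrp1 was found in over-expression replicate 3, sh74 replicate 1, sh75 replicates 2 and 3 and shScramble replicate 3, so by this gene 4 of the 5 groups held both kinds of sample. Other markers divide the samples differently: in vector control, where Esrp1 was high in all 3 samples, Cldn7 was at 6.01, 10.18 and 5.98. Values of 10 of 37 members (27%) were, in all 4 of these groups, higher in every sample with low Esrp1 than in the rest of its group: Dnajb9, Dnajc3, Canx, Pdia6, P4hb, Sel1l, Xbp1, Ern1, Ssr3 and Tmed10. Over all probe sets, 6.30% did so. Dnajb12 and Derl1 were lower in all 4 groups, but their share (5.41%) was near that of all probe sets (5.06%). Ern1, for example, was at 9.44 in the low-Esrp1 sample of the over-expression group against 7.995 and 8.65 in the others, and at 9.20 and 8.85 against 8.11 in sh75. Dnajc3, a co-chaperone of BiP, was at 10.24 against 9.35 and 9.56, and at 9.92 and 10.14 against 9.59. For Dnajb12 this within-group difference was small in sh75, 9.49 and 9.51 against 9.51, while the over-expression samples spread from 9.11 to 9.28. With Esrp1 as a covariate, an alternative chosen after seeing the data, Dnajb12 (0.56, adjusted p = 0.0192, limma) and Tmed9 (-1.19, adjusted p = 0.0318, limma) kept their calls, and in sh74 against sh75 Sel1l (-0.50, adjusted p = 0.0298, limma) and Tmed10 (-0.52, adjusted p = 0.0375, limma) also passed. Esrp1 is a single marker of epithelial state, and the part that this state plays in any of these differences was not tested.

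**Figure D4:**
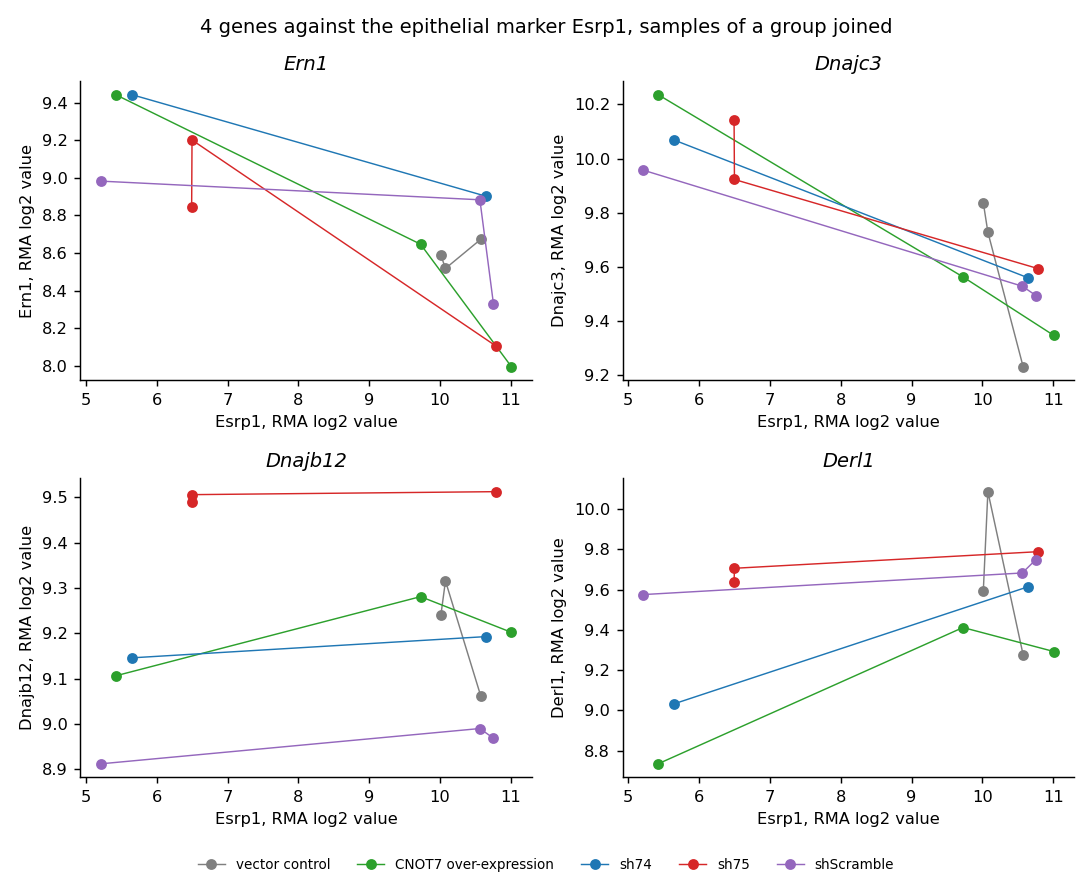
RMA log2 values of Ern1, Dnajc3, Dnajb12 and Derl1 (vertical axes) against the epithelial marker Esrp1 (horizontal axis) in 14 samples, colored by group, with the samples of a group joined by lines. Ern1 and Dnajc3 are higher in the samples with low Esrp1 in the 4 groups that hold both kinds of sample. Derl1 is lower there, which held for 5.41% of members and for 5.06% of all probe sets. For Dnajb12 the sh75 line is on top and nearly level, while the vector controls spread from 9.06 to 9.32.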

How the data were processed

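Total RNA of 14 4T1 samples was profiled on Affymetrix Mouse Gene 1.0 ST arrays. The log2 values the authors deposited were made by RMA with oligo, an R package (versions not given in the sources used here), and were used unchanged. RMA makes array distributions equal, so a shift shared by all genes would be removed. Of 35556 probe sets, 21789 paired with exactly 1 symbol, 1621 with several and 12146 with none. Groups came from the sample labels. The dim limit was the 90th percentile of 1035 olfactory receptor probe sets. All 14 samples entered 1 linear model with 5 groups (limma 3.58.1, R 4.3.3, lmFit and eBayes, two-sided), with Benjamini-Hochberg adjustment over the 21789 probe sets and calls at an adjusted p under 0.05. The fit left 9 residual degrees of freedom and 2.09 prior degrees of freedom. The number of arrays limits the precision. The fitting code was tested on simulated data.

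Alternatives were array centering, a filter on dim probe sets, a fit of the compared groups only, the t-test of the study's methods (unadjusted p under 0.01), an intensity trend, adjustment over the whole table, array weights, the title number as a block and leaving out each sample. The t-test was run on each pair of groups, with the hairpins kept apart. The study instead listed transcripts inversely related to Cnot7 over knockdown and over-expressing cells, so the t-test counts given here are not its own. The members and lists were chosen with earlier results of these data known. Sample values are given, though not in every group, for members that passed a test, 2 members per direction with the lowest p in each main comparison, Hspa5, Hsp90b1, Xbp1, Atf6, Ern1 and the member with the widest range. Promoter sequences are from RefSeq (GRCm38.p6).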

Additional observations from a re-analysis of the deposited data

Results flagged for a closer look

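Tmed9 differed between the hairpins, by -1.19 for sh74 minus sh75 (limma, adjusted p = 0.0383): both sh74 samples lay below, and the sh75 samples within or near, the shScramble range. For Sel1l every sh74 sample lay below and every sh75 sample above all shScramble samples, a difference of -0.51 between the hairpins that did not pass the test of the difference (limma, adjusted p = 0.128).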

How the results depend on the processing

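In all 59 alternatives run, the median difference of the members moved by less than the spread of the members' median between samples (0.09). That margin is wide. It is larger in size than the medians for over-expression (0.06), sh74 (-0.01) and vector control against shScramble (-0.06), and close to that for sh75 (0.09). Without 1 sample the median ran from 0.01 to 0.13 for over-expression, and from -0.06 to 0.00 for sh74, where its sign turned without sh74 replicate 2. Further, of 338 recomputed differences of single members none reversed, and 320 kept their side of the threshold. Most of the 338 had no call to lose, since only Dnajb12 and Tmed9 were called in the main fit. Both of these lost their call in most alternatives. For sh75 against shScramble the 1 member called became 0 when only the compared groups were fitted, with the t-test after adjustment, with an intensity trend and with the title number as a block, and was 0 to 1 when 1 sample was left out. For sh74 against sh75 the 1 member called became 0 with the compared groups only, the t-test, adjustment over the whole table and array weights, 3 with Esrp1 as a covariate, and was 0 to 1 when 1 sample was left out. Over all probe sets, the count for sh74 against shScramble went from 2 to 0 with the compared groups only and with the t-test, 1 with the trend and with weights, 7 with Esrp1 and 1 to 122 without 1 sample. For sh75 it went from 20 to 3 with the compared groups only, 0 with the t-test, 7 with the trend, 35 with weights, 2 with the block and 6 to 22 without 1 sample. For sh74 against sh75 it went from 38 to 0 with the compared groups only, 1 with the t-test, 19 over the whole table, 11 with weights, 68 with Esrp1 and 14 to 53 without 1 sample. Over-expression gave 0 to 1 without 1 sample, and vector control against shScramble 1 with weights. The title number as a block could be fitted only for sh75 against shScramble, because the groups of each other comparison share no number. Whether equal numbers mark paired samples is not stated. Where sh74 was left with 1 sample, that sample was assumed to vary like the other groups. The cause of these shifts was not tested, and groups of 2 or 3 arrays limit what any setting can call.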
